A study of Mus musculus with 3 samples.

Results

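The cells described here are those in which at least 2 transcripts of Ccl5 were counted. They were selected on that count alone, over all cells of the data set, and number 270 of 21251 cells. Transcripts were counted as unique molecular identifiers (UMIs), which collapse copies of 1 captured molecule into 1 count. The cells came from 3 droplet libraries (Chromium 3' v2 chemistry) of mouse bone marrow sorted as LSK. Such cells lack lineage markers and carry both Sca-1 and Kit; stem cells of the blood and their multipotent daughters lie among them. Each genotype had 1 library: WT with Spop(+/+) Myd88(+/+), KO with Spop(D/D) Myd88(+/+), and DKO with Spop(D/D) Myd88(-/-). The product of Spop picks targets for ubiquitination by CUL3, and that of Myd88 relays signals from Toll-like and interleukin-1 receptors. DKO supplied 190 of the selected cells, WT 52 and KO 28. The Cre driver, the number of animals behind each library and their ages were not given in the sources used here.

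CCL5, also called RANTES, is a CC chemokine that draws T cells, monocytes and eosinophils through receptors that include CCR1 and CCR3. It is made mainly by activated T cells, natural killer (NK) cells, macrophages and platelets, and in many cell types its transcription follows interferon and NF-kB signalling. In the bone marrow it has been studied as a factor that tilts stem cells towards myeloid output. The mouse gene lies on chromosome 11 from 83525778 to 83530518 on the minus strand (GRCm38, the mm10 build), in the same cluster as Ccl3 (83647844 to 83649355) and Ccl4 (83662584 to 83664683). Spop (95414080 to 95493406) and Stxbp4 (90476492 to 90638084) lie on the same chromosome.

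The selected cells were called Ccl5-positive, and cells of the same library with no Ccl5 UMI were called Ccl5-zero. Within each library the UMIs of each group of cells were summed and expressed as counts per 1000000 (CPM), with Ccl5 left out of the total. Ratios are Ccl5-positive over Ccl5-zero, with an exact conditional binomial 95% interval. With 1 library per genotype there is no replicate and no test, and every interval covers counting error only. Genes with a mean of at least 20 CPM over both groups counted as measured, and a measured gene was called higher or lower from a 1.5-fold difference. A gene low in 1 group could thus count as measured through its level in the other group, and the counts of called genes include such genes. Library differences in sex go with genotype: Xist stood at 1537 CPM in DKO and at 0.187 in WT, so DKO cells came from females and WT and KO cells from males. Over all cells Myd88 stood at 4.47 CPM in DKO, 13.7 in WT and 25.8 in KO, and Spop at 77.1, 70.7 and 63.1, but 3' tags may lie outside the deleted part of Spop, so its level checks nothing. Barcodes found in more than 1 library numbered 183; 6 selected cells carried one, and 0 barcodes were selected in more than 1 library.

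The working name for these cells lists Txnip and Stxbp4 beside Ccl5 as markers, and the counts of DKO went against both. Txnip, a thioredoxin-binding regulator of glucose uptake, stood in DKO at 119 CPM in Ccl5-positive and 176 CPM in Ccl5-zero cells. In WT it stood at 190 and 168 CPM, and in KO at 57.1 and 43.0 CPM. Stxbp4, a syntaxin-binding protein, stood at 47.4 and 52.8 CPM in DKO, 39.6 and 28.2 CPM in WT, and 3.36 and 7.70 CPM in KO. Neither gene was called higher in the positive cells of DKO or WT. The cells are therefore described by their Ccl5 count and not as a cell type. Transcripts of the sort's surface proteins were present in the positive cells: Kit stood at 54.3 CPM against 66.3 in Ccl5-zero cells of DKO, and Ly6a, which encodes Sca-1, at 92.1 against 89.6.

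Ccl5 was concentrated in few cells. In DKO 2.32% of cells were positive (95% Clopper-Pearson interval 2.01 to 2.67), in WT 0.638% (0.477 to 0.836) and in KO 0.569% (0.378 to 0.821). Cells with exactly 1 Ccl5 UMI made up 2.97% of DKO (2.61 to 3.36), 2.79% of WT (2.44 to 3.17) and 2.50% of KO (2.08 to 2.98). The share with a single UMI thus lay within overlapping intervals in all 3 libraries, and the interval of the share with 2 or more lay higher in DKO than in WT or KO. Counts of 10 or more occurred in 78 DKO cells (0.953%, 0.754 to 1.19), 12 WT cells (0.147%, 0.0761 to 0.257) and 7 KO cells (0.142%, 0.0572 to 0.293). The highest count was 256 UMIs in DKO, 175 in WT and 92 in KO.

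**Figure D1:**
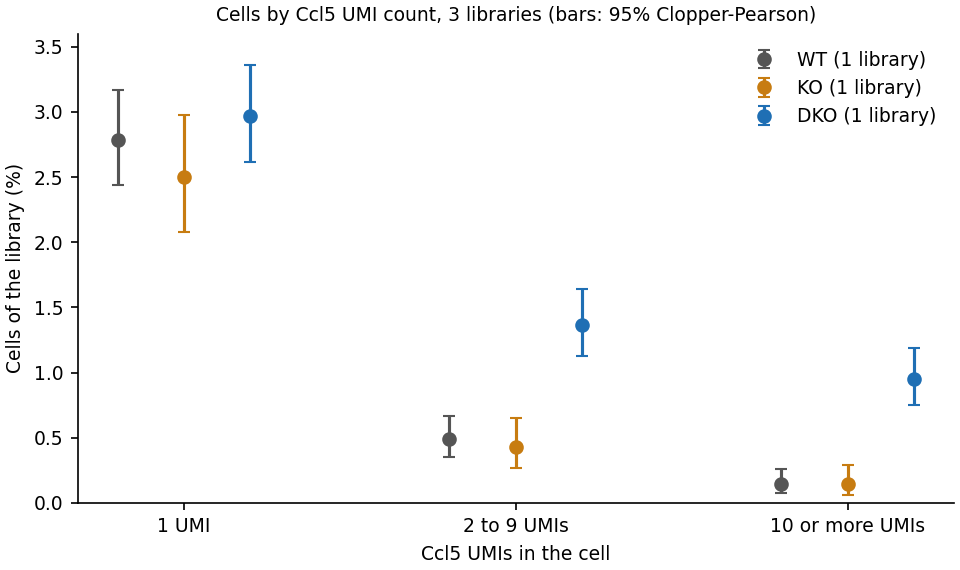
Share of each library's cells (%) with 1, with 2 to 9 and with 10 or more Ccl5 UMIs in WT, KO and DKO. Points are 1 library each and bars are 95% Clopper-Pearson intervals; the 3 libraries lie close together at 1 UMI (2.50% to 2.97%), and DKO stands above the others at 2 to 9 and at 10 or more.

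The DKO cells with at least 10 UMIs held 83.1% of all Ccl5 UMIs of that library, and the 10 cells with the highest counts held 40.8%. The corresponding share of the 10 highest cells was 58.7% in WT and 57.9% in KO. Summed over all cells Ccl5 stood at 37.3 CPM in DKO (95% Poisson interval 36.2 to 38.5), 10.7 in WT (10.0 to 11.4) and 4.17 in KO (3.78 to 4.59). Just inside the selection lay 44 DKO, 20 WT and 11 KO cells with exactly 2 UMIs, and just outside it 243, 227 and 123 cells with 1 UMI. In DKO the median Ccl5 count of positive cells was 7 UMIs.

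Depth per cell differed between the libraries, with a median of 12404.5 UMIs in DKO, 9245 in WT and 17319 in KO. Thinning each cell to 5500 UMIs left out 178 DKO and 683 WT cells that held fewer. After thinning, 1.55% of DKO cells (1.29 to 1.84), 0.415% of WT cells (0.282 to 0.589) and 0.264% of KO cells (0.141 to 0.451) had at least 2 Ccl5 UMIs. DKO remained the library with the larger share at equal depth. Positive cells held more UMIs than Ccl5-zero cells in DKO and KO and fewer in WT: the median was 14687 UMIs against 12304 in Ccl5-zero cells of DKO, 8829.5 against 9234.5 in WT, and 18532 against 17305 in KO. Above the 95th percentile of UMIs of the DKO library lay 20 of the 190 positive and 372 of the 7751 Ccl5-zero cells, a larger share of the positive cells. No doublet caller was run, and the part of doublets in the results was not tested; without the cells above that percentile, 33 genes were called higher in DKO and 54 lower, against 29 and 49 with all cells.

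Free RNA in droplets also gives single UMIs to cells that do not express a gene. Erythroid progenitor-like cells, which are not a known source of CCL5, gave a measure of this in KO: of 987 such cells, 28 held 1 Ccl5 UMI (2.84%) and 1 held 2 or more (0.101%, 0.00257 to 0.563). In WT, 6 of 444 B lineage-like cells held 1 UMI (1.35%) and 0 held 2 or more, which allows a share of up to 0.676%. Their median depths differed, at 15932.5 UMIs in those WT cells against 9245 in the whole library. Counts of 1 are therefore not read here as expression. The WT and KO shares of cells with at least 2 UMIs had intervals that overlapped those of these comparison cells. DKO held only 2 erythroid progenitor-like and 10 B lineage-like cells, so its own background, in a library with more Ccl5 RNA, was not measured in this way.

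Defining transcripts of the mature cells best known for CCL5 were absent or scarce. The list of T, NK and innate lymphoid markers held 22 genes, of which 14 are in the table. Their summed level was 402 CPM in positive and 458 CPM in Ccl5-zero cells of DKO, nearly all of it Nkg7, which early myeloid progenitors also express (362 and 424 CPM). Without Nkg7 the sum was slightly higher in positive cells, with Lck at 18.9 against 15.5 CPM (ratio 1.22, 0.914 to 1.59). Cd3g, Cd2, Ncr1, Xcl1 and Tbx21 were at 0 in the positive DKO cells. No member of the list but Nkg7 reached the level of a measured gene, so these counts of 0 do not set the positive cells apart. A narrower set of 9 T and NK genes, 5 of them in the table, gave a UMI in 5 of 190 positive cells (2.63%) and 141 of 7751 Ccl5-zero cells (1.82%), and 0 positive cells held 2. Of the macrophage list, C1qa, C1qb, C1qc, Vcam1 and Cd5l were at 0 in the positive DKO cells, and the list summed to 14.1 CPM against 19.3.

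In DKO 29 of 5262 measured genes were at least 1.5-fold higher in positive cells (0.551%) and 49 were at least 1.5-fold lower (0.931%). The median log2 ratio over all measured genes was -0.03. The higher genes included 3 CC chemokines, a set of interferon-stimulated genes, and several genes of lymphoid and myeloid progenitors. The lower genes came largely from megakaryocyte, stem cell and immediate early programs. At this level 20 CPM corresponds to 58.3 UMIs summed over the 190 positive cells.

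Among the chemokine ligands, all 3 measured members were called higher in DKO, against 0.551% of all measured genes. Ccl3 (MIP-1 alpha) stood at 70.1 CPM in positive and 42.0 CPM in Ccl5-zero cells of DKO, a ratio of 1.67 (1.44 to 1.92). Ccl4 (MIP-1 beta), its neighbour on chromosome 11, stood at 81.1 and 45.8 CPM, a ratio of 1.77 (1.55 to 2.02). Ccl9, a chemokine of myeloid progenitors, stood at 377 and 240 CPM, a ratio of 1.57 (1.48 to 1.67). The list held 8 genes, 5 of them in the table, and the median log2 ratio of the 3 measured was 0.74. Ccl3 UMIs came from 64 of the 190 positive cells, 10.8% of them from 1 cell, and Ccl4 UMIs from 65 cells, 14.8% from 1 cell.

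Interferon-stimulated genes gave the largest ratios. These genes are switched on when type I or type III interferon activates the factor ISGF3, which binds the interferon-stimulated response element in their promoters. Ifit1, an RNA-binding antiviral protein, stood at 51.6 CPM in positive and 6.74 CPM in Ccl5-zero cells, a ratio of 7.65 (6.37 to 9.14). Rsad2, which encodes the antiviral enzyme viperin, stood at 61.9 and 9.53 CPM, a ratio of 6.49 (5.51 to 7.62). Isg15, a ubiquitin-like modifier, stood at 100.4 and 26.8 CPM, a ratio of 3.74 (3.30 to 4.22). Of the 46 genes on the list, 45 are in the table and 28 were measured: 7 were called higher, 0 lower and 21 lay between. Among all measured genes of DKO the shares were 0.551% higher and 0.931% lower. Ifit1, Rsad2 and Ifih1 stood under 20 CPM in Ccl5-zero cells (6.74, 9.53 and 13.01 CPM). These 3 counted as measured only through their level in the positive cells, so the count of higher genes is not independent of the filter. The median log2 ratio was 0.15, against -0.03 for all genes.

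The promoters of the 3 genes with the largest ratios carried the response element core just before their start sites. The stretches are shown because these genes moved together and the element is the known route of their induction. Sequences are from RefSeq windows on GRCm38.p6 that run from 250 bases before to 50 after each start, read 5' to 3' on the gene's strand, and capitals mark each match, on either strand, to GAAA, 2 bases of any kind and GAAA again; overlapping matches run together. Ifit1 is shown at chr19:34640760-34640838 (plus strand), Rsad2 at chr12:26456538-26456597 (minus strand) and Isg15 at chr4:156200850-156200921 (minus strand).
Ifit1: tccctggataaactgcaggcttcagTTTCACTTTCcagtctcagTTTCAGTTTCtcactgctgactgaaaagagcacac
Rsad2: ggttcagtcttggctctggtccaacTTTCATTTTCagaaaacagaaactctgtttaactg
Isg15: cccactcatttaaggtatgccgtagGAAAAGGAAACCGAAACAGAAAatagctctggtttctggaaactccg
The first base of the first match lay 104 bases before the start of Ifit1, 120 before that of Rsad2 and 78 before that of Isg15, with 2, 1 and 3 matches.

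Over all 32851 windows of 300 bases, 3.44% held this motif. Of the 29 genes called higher in DKO, 24 had a window and 7 of those held it (29.2%): Ifit1, Rsad2, Isg15, Ifih1, Gbp3, Ncf1 and F630028O10Rik. Ifit1, Rsad2 and Ifih1 counted as measured only through their level in positive cells, so this share depends in part on that filter. In Ifih1, which encodes the RNA sensor MDA5, the match began at the 33rd base after the start. Of the 49 genes called lower, 41 had a window and 2 held it (4.88%), Itga2b and Mecom. The kappa B core, searched on both strands as GGGA, 2 bases of any kind and TTCC, was in 1.47% of all windows, in 0 of the 24 windows of higher genes and in 2 of the 41 of lower genes. These are matches of letters and not measured binding. The set of windows held none for Ccl5 or Ccl4, so their promoters were not searched.

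The interferon signal was not shared evenly by the positive cells. It was highest in those with 10 or more Ccl5 UMIs. Isg15 stood at 26.8 CPM in DKO cells with 0 Ccl5 UMIs, 32.9 with 1, 41.0 with 2 to 9, and 188 with 10 or more. Rsad2 stood at 9.53, 10.5, 8.66 and 140 CPM over the same ranges, and Ifit1 at 6.74, 5.67, 9.24 and 114 CPM. Irf7, the factor that amplifies interferon production, stood at 20.3, 15.3, 20.8 and 62.8 CPM, and Ifih1 at 13.01, 10.5, 10.4 and 51.8 CPM. In each of these genes the cells with 2 to 9 Ccl5 UMIs lay far closer to the Ccl5-zero cells than to those with 10 or more. For Rsad2 and Ifih1 the cells with 2 to 9 UMIs lay below the Ccl5-zero cells.

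**Figure D2:**
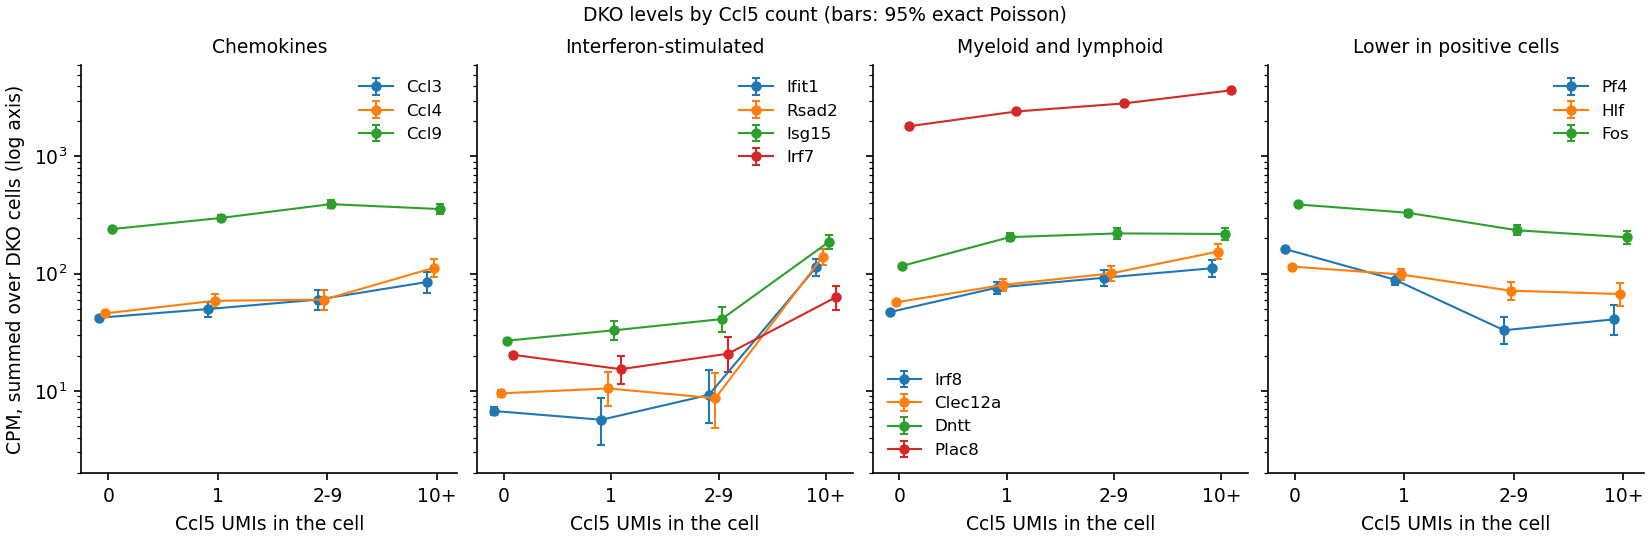
CPM summed over DKO cells (log axis) against the Ccl5 UMI count of the cell, in 4 ranges, for chemokines, interferon-stimulated genes, myeloid and lymphoid genes, and genes lower in positive cells. Bars are 95% exact Poisson intervals; the interferon-stimulated genes are highest at 10 or more UMIs, with a smaller rise of Isg15 from 26.8 to 41.0 CPM between 0 and 2 to 9, whereas Plac8, Pf4, Fos and Hlf already differ at 2 to 9 UMIs.

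A sum over 9 interferon-stimulated genes (Ifit1, Ifit2, Ifit3, Ifit3b, Isg15, Rsad2, Oasl2, Usp18 and Cxcl10, a set drawn up after the values were seen) shows the spread from cell to cell. In DKO the 112 cells with 2 to 9 Ccl5 UMIs held between 0 and 13 UMIs of the 9 genes, with a median of 1. The 62 cells with 10 to 49 held between 0 and 40, with a median of 2, and the 16 cells with 50 or more held between 0 and 249, with a median of 5.5. At least 3 such UMIs were found in 12.8% of Ccl5-zero cells (12.04 to 13.5), 16.1% of cells with 2 to 9 Ccl5 UMIs (9.81 to 24.2) and 44.9% of cells with 10 or more (33.6 to 56.6). With each cell thinned to 5500 UMIs, cells were grouped anew by their Ccl5 count after thinning, so the groups are not the same cells. The shares were then 3.79% of 7729 cells (3.38 to 4.24), 4.55% of 88 (1.25 to 11.2) and 38.9% of 36 (23.1 to 56.5). Even so, without thinning 15 of the 62 cells with 10 to 49 Ccl5 UMIs and 1 of the 16 with 50 or more held none of the 9 transcripts.

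A single DKO cell carried much of the sum. It held 178 Ccl5 UMIs and 249 UMIs of the 9 genes, which is 28.3% of the 881 found in all positive cells, and it gave 66 of the 150 Ifit1 UMIs and 69 of the 180 Rsad2 UMIs. Without it Ifit1 stood at 29.0 CPM in positive cells (ratio 4.31), Rsad2 at 38.4 CPM (4.03) and Isg15 at 87.1 CPM (3.25). All 3 remained above 1.5-fold. Among cells with 10 or more Ccl5 UMIs, leaving this cell out gave 58.5 CPM for Ifit1, 82.6 for Rsad2 and 156 for Isg15. Cxcl10, the interferon-induced chemokine, was chosen after its values were seen. It stood at 23.4 CPM in positive and 1.17 CPM in Ccl5-zero cells, and only 6 positive cells held it.

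Read the other way, the share of Ccl5-positive cells in DKO depended on how many interferon UMIs were asked for. Of 308 DKO cells with at least 5 UMIs of the 9 genes 27 were positive (8.77%, 5.86 to 12.5), and of 50 cells with at least 10 UMIs 15 were (30%, 17.9 to 44.6). Of 15 cells with at least 20 UMIs 8 were positive (53.3%, 26.6 to 78.7), each with at least 10 Ccl5 UMIs. These limits were set after the values were seen. In WT 2 of 10 cells with at least 20 UMIs were positive (20%, 2.52 to 55.6). In KO 1 of 98 was (1.02%, 0.0258 to 5.55), and 93 of the 98 had no Ccl5 UMI. KO Ccl5-zero cells also had the highest level of the 9 genes, at 128 CPM against 86.6 in DKO and 71.5 in WT.

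**Figure D3:**
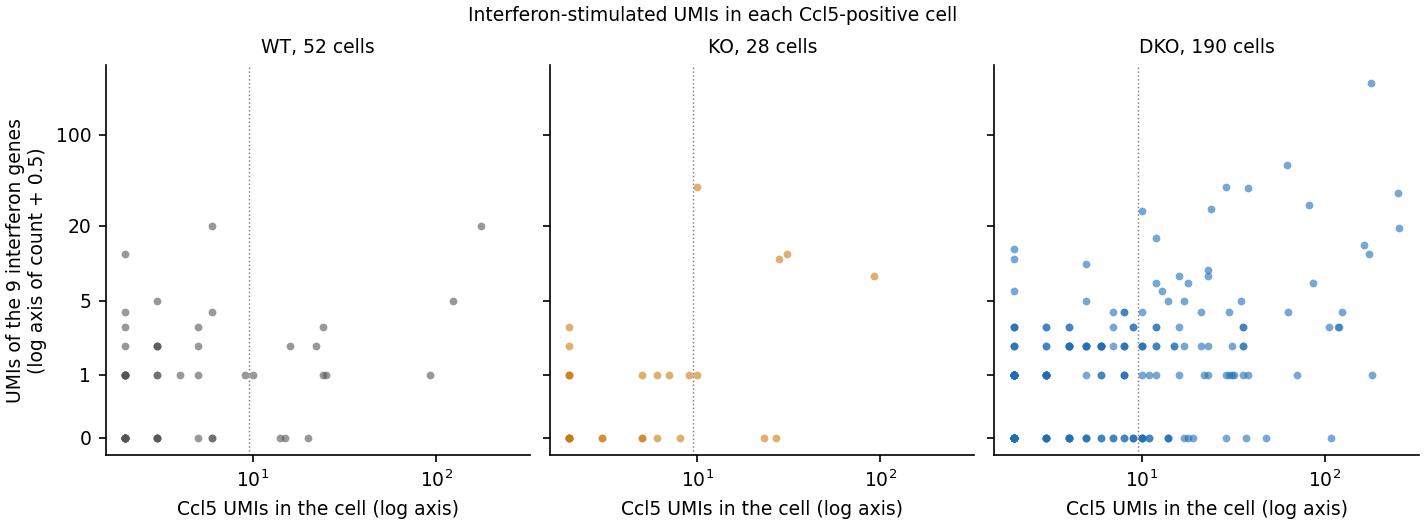
Each point is 1 Ccl5-positive cell, placed by its Ccl5 UMIs (log axis) and its UMIs of 9 interferon-stimulated genes (log axis of the count plus 0.5), in WT, KO and DKO; darker points are cells that overlap. The dotted line separates counts of 2 to 9 from 10 or more; cells above 20 interferon UMIs in DKO lie to its right, and many cells on that side hold 0 or 1.

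Several genes of lymphoid and myeloid progenitors were also higher in positive cells of DKO. For Irf8 and Dntt most of the rise came below 10 Ccl5 UMIs. Irf8, the factor that sets monocyte and dendritic fate, stood at 100.02 CPM in positive and 47.0 CPM in Ccl5-zero cells, a ratio of 2.13 (1.88 to 2.40). Over Ccl5 counts of 0, 1, 2 to 9 and 10 or more it stood at 47.0, 76.0, 92.4 and 111 CPM. Clec12a, an inhibitory lectin of myeloid cells, stood at 122 and 56.9 CPM in positive and Ccl5-zero cells, a ratio of 2.15 (1.93 to 2.39). Over the same ranges Clec12a stood at 56.9, 80.3, 100 and 155 CPM, with its largest rise at 10 or more. Dntt, which encodes the terminal transferase of early lymphoid cells, stood at 220 and 117 CPM, a ratio of 1.88 (1.73 to 2.04). Unlike the interferon-stimulated genes, Dntt was as high in cells with 2 to 9 Ccl5 UMIs (221 CPM) as in those with 10 or more (218 CPM). In cells with 1 Ccl5 UMI, a count not read here as expression, Dntt already stood at 205 CPM and Clec12a at 80.3 CPM. The higher level of Dntt was therefore not particular to the selected cells.

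Of the lymphoid-primed list of 15 genes, 14 are in the table and 9 were measured; 3 were called higher, 0 lower, all 9 had a ratio above 1, and the median log2 ratio was 0.48. The called members were Dntt, Satb1, a chromatin organiser of lymphoid cells, at 108 and 68.9 CPM (ratio 1.57, 1.39 to 1.75), and Notch1, at 28.5 and 18.9 CPM (1.51, 1.20 to 1.88). Notch1 stood under 20 CPM in Ccl5-zero cells and counted as measured only through its level in positive cells. Over Ccl5 counts of 0, 1, 2 to 9 and 10 or more Notch1 stood at 18.9, 21.6, 22.5 and 37.4 CPM, with the largest rise at 10 or more. For comparison, 0.551% of all measured genes of DKO were called higher. Plac8, a small cysteine-rich protein of early myeloid and lymphoid progenitors, was found in all 190 positive cells and stood at 3172 against 1810 CPM, a ratio of 1.75 (1.72 to 1.79). Over Ccl5 counts of 0, 1, 2 to 9 and 10 or more it stood at 1810, 2419, 2834 and 3667 CPM, a rise at each range. Cd74, the invariant chain of MHC class II, had a ratio of 1.83 (1.64 to 2.04), with 28.8% of its UMIs from 1 cell. It was the only one of 8 measured MHC class II genes to be called; H2-Eb1 had a ratio of 1.39 and H2-Aa of 1.15. Of the monocyte and dendritic list of 12 genes, 2 were measured; Irf8 was called higher and Ly6c2 had a ratio of 0.953 (0.748 to 1.20). The list summed to 184 CPM in positive and 108 CPM in Ccl5-zero cells, most of the difference from Irf8, with Siglech and Xcr1 at 0.

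Other genes called higher were Tmem229b, a membrane protein, at 43.7 and 18.7 CPM (ratio 2.34, 1.94 to 2.80), Ifi27l2a at 46.1 and 22.3 CPM (2.06, 1.72 to 2.45), Rab44 (1.79), Milr1 (1.65), an inhibitory receptor of mast cells, and Slc43a2 (1.60), an amino acid transporter. Rel, the NF-kB subunit of lymphoid cells, stood at 24.7 and 15.7 CPM (1.58, 1.23 to 1.998). Among 19 genes that regulate Ccl5 transcription, 13 were measured, and Irf7 (1.86, 1.52 to 2.26) and Rel were the 2 called. The share called higher over all measured genes of DKO was 0.551%. Rel and Tmem229b stood under 20 CPM in Ccl5-zero cells (15.7 and 18.7 CPM). They counted as measured only through their level in the positive cells, so their calls are not independent of the filter. Klf13, the factor named for late RANTES transcription in T cells, stood at 83.2 and 81.3 CPM (1.02, 0.897 to 1.16), Nfkb1 at 94.9 and 87.1 CPM (1.09, 0.962 to 1.23) and Irf1 at 38.2 and 31.1 CPM (1.23, 1.01 to 1.48). Of 26 NF-kB targets, 6 were measured; Ccl3 and Ccl4 were called higher, and the median log2 ratio was 0.15. The receptors were at the edge of detection: Ccr1 had 3 UMIs over the positive DKO cells and Ccr3 had 0. A count of 0 allows up to 3 UMIs, which for Ccr1 was 1.03 CPM. Cd44, a CCL5-binding partner, stood at 74.2 and 76.5 CPM, and Srgn, the proteoglycan that stores chemokines in granules, at 1059 and 1192 CPM.

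Megakaryocyte and erythroid transcripts were lower in positive cells. Pf4, the platelet chemokine CXCL4, stood at 36.1 CPM in positive and 162 CPM in Ccl5-zero cells of DKO, a ratio of 0.222 (0.182 to 0.269). Over Ccl5 counts of 0, 1, 2 to 9 and 10 or more it stood at 162, 89.1, 32.9 and 40.7 CPM. F2r, the thrombin receptor, had a ratio of 0.462 (0.331 to 0.629), and Gp9, a platelet glycoprotein, of 0.592 (0.462 to 0.747). Of the 16 genes of the megakaryocyte and platelet list, 6 were measured, 5 were called lower, 0 higher, and the median log2 ratio was -0.88. For comparison, 0.931% of all measured genes of DKO were called lower. The list summed to 206 CPM against 438 CPM. Car1, a carbonic anhydrase of erythroid and basophil progenitors, showed the widest gap, with 7 UMIs in positive cells (2.41 against 83.3 CPM, 0.0289, 0.0116 to 0.0595), and Blvrb, biliverdin reductase, had a ratio of 0.406 (0.308 to 0.525). Of the 15 genes of the erythroid list 3 were measured; these 2 were called lower and 0 higher, the median log2 ratio was -1.30, and the list summed to 442 against 773 CPM.

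Stem cell genes were lower as well. Hlf, a factor of long-term stem cells, stood at 69.8 and 115 CPM, a ratio of 0.606 (0.525 to 0.697). Pdzk1ip1 had a ratio of 0.464, Hacd4 of 0.471, Nkx2-3 of 0.490 and Tal1, a master factor of blood formation, of 0.540. Of 18 stem cell markers 6 were measured, 4 were called lower and 0 higher, with a median log2 ratio of -0.65. Of 29 stem cell transcription factors 19 were measured, 7 were called lower and 0 higher, with a median of -0.21. The share called lower over all measured genes of DKO was 0.931%. Cd34, carried by most multipotent progenitors, was level at 361 and 359 CPM.

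Immediate early genes, which respond within minutes to growth factors, stress and cell handling, were the third group with lower values. Fos stood at 222 and 389 CPM, a ratio of 0.571 (0.528 to 0.617). Fosb had a ratio of 0.549 (0.441 to 0.675), Egr1 of 0.535 (0.428 to 0.661) and Nr4a1 of 0.502 (0.366 to 0.674). Of 30 genes 22 were measured; 6 were called lower and 0 higher, 3 of the 22 had a ratio above 1, and the median log2 ratio was -0.42. Among all measured genes of DKO 0.931% were called lower. Granule genes moved both ways: Elane, neutrophil elastase, had a ratio of 0.593 with 63.2% of its UMIs from 1 cell, Ms4a3 of 0.635, and Ctsg, cathepsin G, of 1.43. The higher level of Ctsg was not kept with Ccl5-zero cells weighted to the depth of the positive cells (1.05) or to their clusters (1.01). By depth Elane was at 0.350 and Ms4a3 at 0.456. S100a8 had a ratio of 0.495.

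No gene of several large programs was called in DKO. This held for 40 measured S phase genes (median log2 ratio -0.12), 44 genes of G2 and M phase (0.11), 33 of oxidative phosphorylation (-0.03), 13 of glycolysis (-0.05), 14 of MHC class I and peptide loading (-0.03) and 13 of quiescence and FOXO targets (-0.02). It also held for 4 measured genes of Toll-like and interleukin-1 receptor signalling (-0.10) and 4 Gimap GTPases (-0.19). As only 0.551% of all measured genes of DKO were called higher and 0.931% lower, lists of this size would hold few or no calls. The absence of calls therefore does not set these programs apart. Spop stood at 79.1 and 76.8 CPM in positive and Ccl5-zero cells of DKO.

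The positive cells were spread over the progenitor compartment. Cells of all libraries were grouped into 22 clusters without using Ccl5, and positive DKO cells were found in 18 of them, with at most 17.4% of them in any 1. The cluster led by Stxbp4, Tnip3 and Txnip held 33 positive cells among its 1467 DKO cells (2.25%, 1.55 to 3.14). Of its 96 WT cells 5 were positive (5.21%, 1.71 to 11.7). In DKO the share of positive cells among clusters of at least 50 DKO cells was lowest, at 0 of 215, in the cluster led by Prss34, Sphk1 and Csrp3, which allows up to 1.40%. It was 0.974% (0.201 to 2.82) in the stem cell-like cluster. It was 1.13% (0.602 to 1.92) in the 2 megakaryocyte progenitor-like clusters together. It was 3.91% (2.37 to 6.04) in the 2 lymphoid-primed progenitor-like clusters and 4.95% (3.28 to 7.11) in the cluster led by Mcpt8, F630028O10Rik and Ccl9, which also counted Irf8 and Ctsg among its 10 leading genes. The 3 clusters with Fos and Nr4a1 among their 10 leading genes had 2.07% (1.43 to 2.90) together; Ccl3 and Ccl4 were among the leading genes of 2 of them. The intervals of the Mcpt8-led and lymphoid-primed clusters did not overlap that of the megakaryocyte progenitor-like clusters, whereas neighbours in this order did overlap. Clusters differed in depth, with median UMIs of 16162 in the Mcpt8-led and 8674 in the stem cell-like cluster; the part of depth in these shares was not tested.

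**Figure D4:**
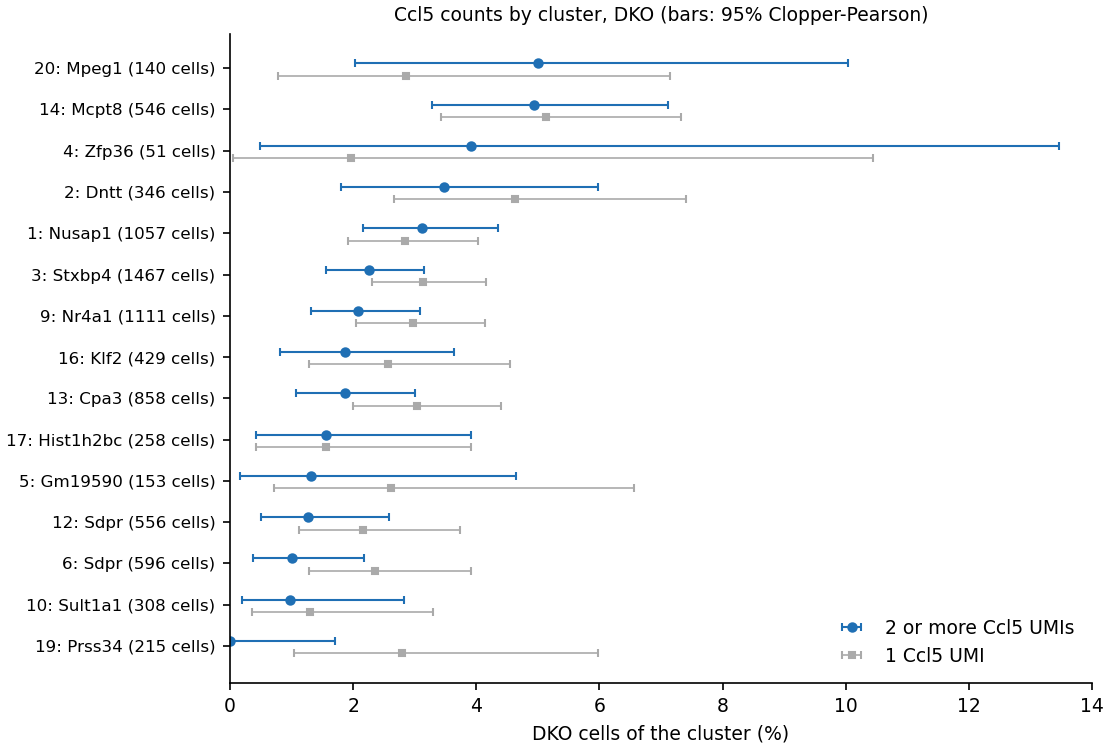
Share of DKO cells (%) with at least 2 Ccl5 UMIs (circles) and with 1 UMI (squares) in each cluster of at least 50 DKO cells, named by number and leading gene. Bars are 95% Clopper-Pearson intervals; the circles run from 0 in the Prss34-led cluster to 4.95% and 5% in clusters 14 and 20, and the squares vary less.

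Weighting the Ccl5-zero cells to the cluster shares of the positive cells separated the groups of genes. The interferon-stimulated ratios changed little, at 7.47 for Ifit1, 6.77 for Rsad2, 3.85 for Isg15 and 2.35 for Ifih1. Ccl3 and Ccl4 were at 1.64 and 1.77, while the third chemokine called higher, Ccl9, moved from 1.57 to 1.29, below 1.5-fold. The lymphoid and myeloid progenitor genes moved towards 1: Irf8 to 1.30, Dntt to 1.20, Satb1 to 1.25 and Clec12a to 1.498. Plac8 stood at 1.42. Car1 moved from 0.0289 to 0.787, S100a8 from 0.495 to 0.912 and Pf4 from 0.222 to 0.422, F2r from 0.462 to 0.716 and Blvrb from 0.406 to 0.664, while Fos (0.648), Nr4a1 (0.579) and Hlf (0.663) moved less. With this weighting 13 genes were called higher, 10 of them among the 29, and 16 lower, 13 of them among the 49.

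In WT, 52 positive cells held 531295 UMIs, so that 20 CPM corresponds to 10.6 UMIs, and many genes pass 1.5-fold by counting error. There 202 of 5267 measured genes were called higher (3.84%) and 219 lower (4.16%), with a median log2 ratio of 0.00. Of the 29 genes called higher in DKO, 25 were measured in WT, and 20 of those had a ratio above 1 (80%, against 50.6% of all genes measured in WT). The 8 called higher in both were Anxa3, Ccl3, Ccl4, Cd74, Isg15, Rsad2, Slc4a8 and Tmem229b. These are 32.0% of the 25, and 6.45% of the 124 WT-higher genes that were measured in DKO. Rsad2 counted as measured in WT only through its positive cells (43.3 CPM, against 6.32 in Ccl5-zero cells). The shares of agreement among higher genes are therefore not independent of the filter. Of the 49 genes called lower in DKO, 38 were measured in WT and 19 had a ratio below 1 (50%, against 49.4% of all genes). The 5 called lower in both, 13.2% of the 38, included Blvrb, Elane, Pf4 and Pglyrp1.

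Of the chemokine and interferon genes named for DKO, several were also higher in WT positive cells. Ccl3 stood at 205 CPM in positive and 66.6 CPM in Ccl5-zero cells of WT, a ratio of 3.08 (2.53 to 3.73), from 10 of the 52 cells. Ccl4 stood at 177 and 80.7 CPM (2.19, 1.77 to 2.69), Isg15 at 73.5 and 26.0 CPM (2.82, 2.002 to 3.87), Rsad2 at 43.3 and 6.32 CPM (6.86, 4.31 to 10.4) and Ifit1 at 33.9 and 5.53 CPM (6.13, 3.602 to 9.80). The mean of Ifit1 was 19.7 CPM, under the level for a measured gene. Ccl9 was not called in WT (145 and 117 CPM, 1.24, 0.979 to 1.55). For Ccl3, Ccl4, Isg15, Rsad2 and Ifit1, between 15.4% and 43.5% of the UMIs came from 1 cell. In WT, Ccl3 was high in the 40 cells with 2 to 9 Ccl5 UMIs (276 CPM) and not in the 12 with 10 or more (14.04 CPM), the opposite order to DKO. Rsad2 too was higher in WT cells with 2 to 9 (48.9 CPM) than in those with 10 or more (28.1 CPM), while Ifit1 stood at 20.6 and 70.2 CPM.

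**Figure D5:**
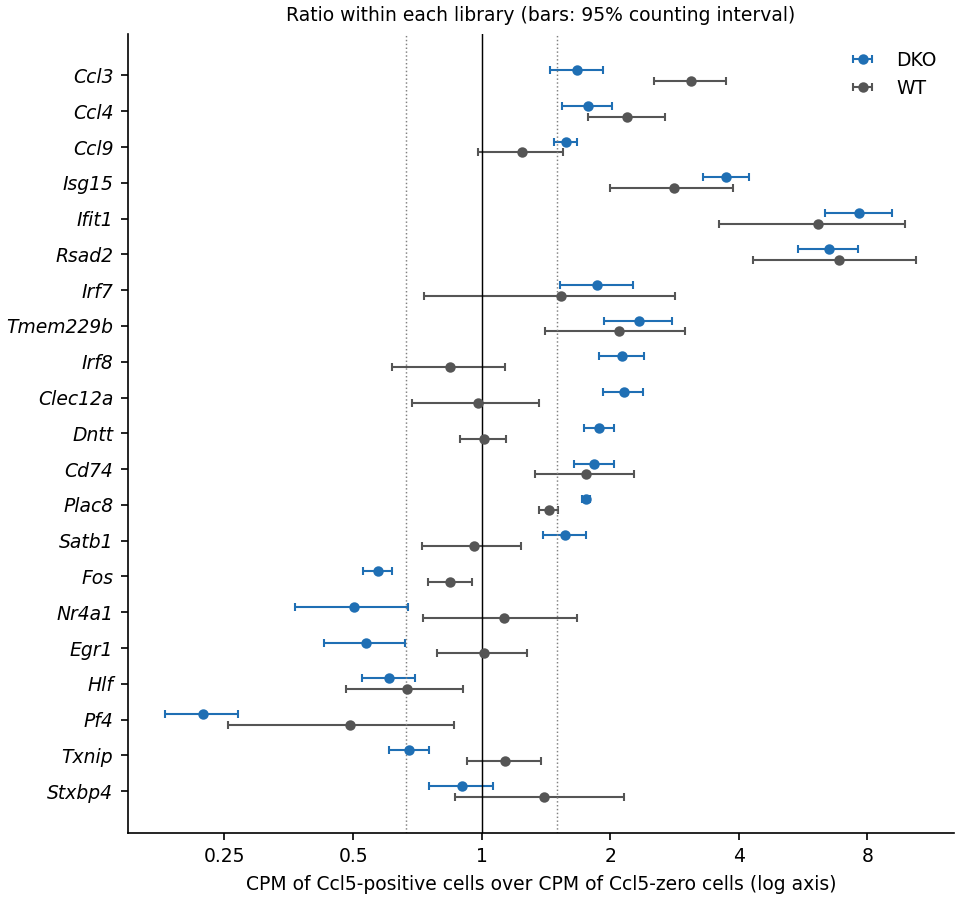
Ratio of CPM in Ccl5-positive over Ccl5-zero cells (log axis) for named genes in DKO and WT, with 95% counting intervals; dotted lines mark 1.5-fold. Ccl3, Ccl4, Ifit1, Rsad2 and Isg15 have ratios above 1.5 in both libraries; Irf8, Clec12a and Dntt lie above 1 in DKO and near 1 in WT; Txnip and Stxbp4 lie below 1 in DKO.

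Some lymphoid and myeloid progenitor genes called higher in DKO were near 1 in WT: Irf8 0.845 (0.616 to 1.13), Clec12a 0.982 (0.687 to 1.36), Dntt 1.01 (0.891 to 1.14) and Satb1 0.957 (0.726 to 1.24). Others of these genes were above 1 in WT too, with Plac8 at 1.44 (1.37 to 1.51) and Cd74 at 1.75 (1.33 to 2.27). Among all measured genes of WT 3.84% were called higher and 4.16% lower, so a few calls in a list are hard to read. Of 11 measured lymphoid-primed genes in WT 2 were called higher, Cd52 (1.61, 1.40 to 1.85) and Ltb (1.87, 1.499 to 2.30), and 0 lower. Of 3 measured monocyte and dendritic genes 2 were called higher, Ly6c2 (2.89) and F13a1 (8.92), each with 75% of its UMIs from 1 cell. Immediate early genes were near 1 there, with Fos at 0.844 (0.747 to 0.951), Egr1 at 1.01 and Nr4a1 at 1.13, and a median log2 ratio over the list of 0.13. Pf4 (0.492, 0.254 to 0.861) and Hlf (0.670, 0.482 to 0.906) were below 1 as in DKO. Other stem cell genes were not: Pdzk1ip1 had a ratio of 1.40 (0.956 to 1.98), Hacd4 of 1.30, Nkx2-3 of 1.17 and Tal1 of 1.04. In WT 0 of 8 measured stem cell markers were called in either direction, and of 20 stem cell transcription factors 2 were called higher and 0 lower. With 1 library per genotype these differences between DKO and WT were not tested.

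B lineage genes were lower in positive cells of WT. Vpreb1 and Igll1, which encode the surrogate light chain of early B cells, stood at 5.65 against 144 CPM and 9.42 against 129 CPM. Cd79a, part of the B cell receptor, stood at 3.77 against 93.7 CPM. All 8 measured members of the list of 10 were called lower, against 4.16% of all measured genes of WT. The list summed to 128 against 817 CPM. The 444 B lineage-like cells of WT included 0 positive cells, and with clusters weighted Igll1 had a ratio of 0.655, Vpreb1 of 0.275 and Cd79a of 0.139. DKO had 10 such cells and 1 measured gene of this list.

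KO had 28 positive cells, too few for a count of genes. Over all of them Isg15 stood at 48.7 against 64.4 CPM in Ccl5-zero cells (0.756, 0.506 to 1.09), Ifit1 had a ratio of 2.24 (1.30 to 3.61) and Rsad2 of 5.60 (3.66 to 8.20). Without the 1 cell highest in interferon genes the ratios were 0.608, 0.670 and 1.26. The 7 cells with 10 or more Ccl5 UMIs stood at 170 CPM for Isg15, 126 for Ifit1 and 200 for Rsad2, against 64.4, 12.7 and 8.10 CPM in KO Ccl5-zero cells. The 21 cells with 2 to 9 stood at 13.04, 0 and 0 CPM. One cell gave 77.8% of the Rsad2, 70.6% of the Ifit1 and 27.6% of the Isg15 UMIs of all positive KO cells. Ccl3 had 0 UMIs in the positive KO cells, and Ccl4 stood at 6.72 against 6.85 CPM, so the chemokine pattern of DKO and WT was not seen at this depth. Pf4 (70.5 against 184 CPM) and Car1 (31.9 against 314 CPM) were lower in KO positive cells, with 52.4% of the Pf4 and 89.5% of the Car1 UMIs there from 1 cell. Plac8 was level there, at 4160 and 4068 CPM.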

How the data were processed

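Values are whole-number UMI counts per gene and cell, deposited by the authors for 14721 genes and 21251 kept cells of 3 libraries. Per the submitters' processing notes the tools were Seurat, bcl2fastq and Cell Ranger and the build mm10; versions and settings were not given in the sources used here. The deposited normalized table was not used. Cells were grouped by library from the labels. The members and lists were chosen with earlier results of these data known. Counts were summed per group with Ccl5 left out, and ratios were given exact intervals (SciPy 1.17.1); calculations were tested on simulated data. Genes were named as the 10 highest and 10 lowest ratios per library (without sex-linked, globin, ribosomal, mitochondrial or predicted genes, or any with over 10% of UMIs from 1 cell), up to 4 per list, and Ccl5, Txnip, Stxbp4, Spop and Myd88; others (Ifit1, Rsad2, Cxcl10, Elane, Usp18, Klf13, Kit, Ly6a, Cd34, Ccr1, Ccr3, genes shared by DKO and WT, promoter matches, markers at 0) were chosen after their values were seen. Clusters used scanpy 1.11.5 and leidenalg 0.10.2 (2000 variable genes without Ccl5, 30 components, 20 neighbours, resolution 1); a cluster was named from at least 3 of 15 leading genes on 1 marker list with a lead of 2, a rule set after seeing the clusters. Of the gene symbols, 14216 matched 1 gene of GENCODE vM21. A test over the 3 libraries was planned only if each had at least 50 positive cells; KO had 28, so it and its alternatives were not run. Some named genes are not reported here. Free RNA in droplets and sequencing depth affect low counts.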

Additional observations from a re-analysis of the deposited data

How the results depend on the processing

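With each cell thinned to 5500 UMIs the share of positive cells was 1.55% in DKO, 0.415% in WT and 0.264% in KO; from 1 Ccl5 UMI it was 5.29%, 3.42% and 3.07%, and from 3 UMIs 1.78%, 0.393% and 0.346%. In DKO the 29 higher and 49 lower genes became 13 and 16 with Ccl5-zero cells weighted to clusters, 10 and 13 from 1 Ccl5 UMI, and 73 and 122 from 10 UMIs. They became 10 and 15 at a mean of at least 50 CPM and 3 and 3 at 100 CPM. In WT the 202 higher and 219 lower genes became 3 and 8 from 1 UMI, 394 and 341 from 3, 893 and 705 from 10, and 307 and 334 at 2 to 9. They became 38 and 33 at 50 CPM and 11 and 9 at 100 CPM. In DKO cells with 2 to 9 UMIs the ratio was 0.799 for Ifih1 and 0.909 for Rsad2. In WT, from 10 UMIs, it was 0.211 for Ccl3, 0.113 for Cd74, 0.717 for H2-Eb1, 0.899 for Cd52 and 0.850 for Ltb; from 3 UMIs Cd74 was at 0.995, from 1 UMI Pf4 was at 2.54 and Ly6c2 at 0.624, and with clusters weighted Ctsg was at 0.989. The WT median log2 ratio of NF-kB targets was -0.012 from 3 UMIs and -0.90 from 10. The cause of these changes was not tested; WT counts rest on 52 cells, or 12 from 10 UMIs. Counts at 10 or more, at 2 to 9, without the top interferon cell and at 100 CPM were added after the data were seen. Over named genes and alternatives, 1127 values stayed within the counting interval of the reported ratio, 218 moved beyond it and 11 changed direction. The test over libraries and its alternatives were not run, because KO had 28 positive cells. No paired analysis was possible because the labels give no replicate numbers and each genotype has 1 library.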
